A study of Homo sapiens with 4 samples.

Results

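The HOXB coding genes HOXB2, HOXB3, HOXB4, HOXB5, HOXB6, HOXB7, HOXB8, HOXB9 and HOXB13 were followed by RNA-Seq in OCI-AML3, a human line derived from acute myeloid leukemia (AML) with heterozygous NPM1 and DNMT3A mutations and a homozygous mutation of NRAS. They were taken by name, as the 9 genes of a cluster on chromosome 17, from a table of 58037 Ensembl genes, and all 9 were among the 15718 genes that had enough counts to be tested. The cells were harvested 3 days (72 hours) after transfection with the control guide sgNeg, which the study calls sgRNA Ctrl (2 libraries), or with sgNPM1A, whose target is the mutated allele of NPM1 (2 libraries), so that all groups share the mutations of the line other than the targeted allele. Whether edited cells were selected or cloned is not given in the sources used here, and the values are those of the transfected culture. The study calls the libraries biological replicates and the labels do not say that they came from separate cultures, so the p-values measure the spread between these libraries.

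HOX genes encode homeodomain transcription factors that set position along the body axis and are used again in blood formation. They lie in clusters in the order in which they act along that axis, from low paralog numbers at the 3′ end to high ones at the 5′ end. In hematopoiesis HOXB genes are active in stem and progenitor cells and fall silent as cells mature, and AML with mutant NPM1 is known for sustained expression of HOXA and HOXB genes together with their cofactor MEIS1. The comparison of sgNPM1A with sgNeg asks how the transcriptome depends on the presence of mutant NPM1.

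Total counts per library lay between 25069484 and 28276391, so that 3 counts, taken as the floor of detection, correspond to 0.108 to 0.118 CPM (TMM-normalized counts scaled to a common library size). NPM1 had 1319 and 1385 CPM with sgNeg and 1189 and 1132 CPM with sgNPM1A, but the gene count sums both alleles and does not check the edit of the mutant one. The line's label was checked against 8 myeloid markers, all with counts, whose summed level was 1338 and 1314 CPM with sgNeg and 3959 and 4685 CPM with sgNPM1A. Most of this rise was LYZ, and the other 7 summed to 1067 and 1099 CPM with sgNeg and 1316 and 1318 CPM with sgNPM1A. Of the 8 markers, 5 were called higher with sgNPM1A (LYZ, ITGAM, MPO, SPI1 and ANPEP) and 0 lower, where 10.5% of all tested genes were called higher and 10.3% lower. Markers of T, B, erythroid, epithelial, endothelial and stromal cells summed to 0.197 to 0.502 CPM per library. Of the 14 of these 15 with a row, 9 had 0 counts in every library, and none had more than 6 counts in any library.

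Changes are given as the log2 fold change of sgNPM1A over sgNeg (log2FC) with its standard error (SE), from the quasi-likelihood test of edgeR over all tested genes. A gene was called when its adjusted p was under 0.05 and the higher group exceeded the lower by at least 25%. Of the 9 HOXB genes, 8 were called lower with sgNPM1A, 0 were called higher and HOXB5 was not called, where 10.3% of all tested genes were called lower and 10.5% higher. In the same 8 genes both sgNPM1A libraries lay below both sgNeg libraries, a separation, in either direction, that 63.1% of all tested genes showed. The median log2FC of the 9 genes was -1.78, beside 0.00 over all tested genes. Their summed level was 129.1 and 144.4 CPM with sgNeg and 43.98 and 35.47 CPM with sgNPM1A, which is 3.44-fold lower in the mean. In bulk RNA, fewer cells that express a gene and less RNA of it per cell cannot be told apart, and the part that the rise of the myeloid markers has in these values was not tested.

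**Figure D1:**
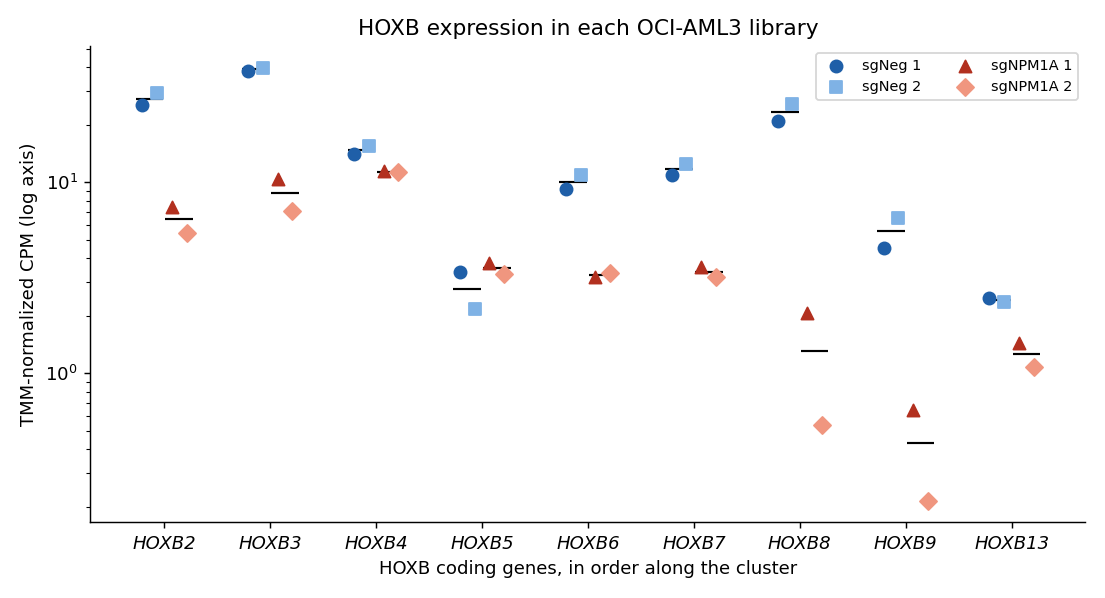
TMM-normalized CPM (log axis) of the 9 HOXB coding genes, in order along the cluster, with 1 symbol per library and a horizontal line at each group's mean. The sgNPM1A symbols lie below the sgNeg symbols for every gene but HOXB5, and the distance between the sgNPM1A libraries is largest for HOXB8 (2.08 and 0.540 CPM).

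The genes with the deepest falls were HOXB8 and HOXB9, which are neighbors at the 5′ end of the main cluster. HOXB8, known as a factor that can hold myeloid progenitors in an immature state when it is overexpressed, lies on chromosome 17 of GRCh38 from 48612346 to 48615292. It had 533 and 666 counts (21.0 and 25.7 CPM) with sgNeg and 58 and 15 counts (2.08 and 0.540 CPM) with sgNPM1A. Both sgNPM1A libraries were far below the controls, and they also differed from each other by 3.85-fold. The exact Poisson 95% intervals of the latter counts, 44.04 to 74.98 and 8.395 to 24.74, did not overlap. HOXB8 fell 17.7-fold, a log2FC of -4.15 (SE 0.30, adjusted p = 2.51e-06, edgeR). The size of the fall depended on the library, since the log2FC was -3.48 without sgNPM1A replicate 2 and -5.42 without sgNPM1A replicate 1.

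HOXB9, from 48621156 to 48626358, is the last gene before a gap of 98404 bases that separates HOXB13 from the rest. It had 115 and 169 counts (4.52 and 6.53 CPM) with sgNeg and 18 and 6 counts (0.646 and 0.216 CPM) with sgNPM1A. As for HOXB8, sgNPM1A replicate 2 was the lowest library and sgNeg replicate 2 the highest. HOXB9 fell 12.7-fold, a log2FC of -3.67 (SE 0.35, adjusted p = 1.88e-05, edgeR), which was -3.09 without sgNPM1A replicate 2 and -4.64 without sgNPM1A replicate 1.

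At the 3′ end of the cluster HOXB2 and HOXB3, which take part in patterning of the hindbrain, fell to a similar extent. HOXB2, from 48542655 to 48545109, had 643 and 755 counts (25.3 and 29.2 CPM) with sgNeg and 208 and 150 counts (7.46 and 5.40 CPM) with sgNPM1A. This was a log2FC of -2.08 (SE 0.15, adjusted p = 1.95e-06, edgeR), or 4.23-fold lower. HOXB3, from 48548870 to 48590241, had the most counts of the 9 in the control libraries. There were 972 and 1030 counts (38.2 and 39.8 CPM) with sgNeg and 290 and 197 counts (10.4 and 7.10 CPM) with sgNPM1A, a log2FC of -2.16 (SE 0.14, adjusted p = 1.25e-06, edgeR). The groups were well separated in both genes, and sgNPM1A replicate 2 was again the lower sgNPM1A library, beyond its counting interval. The log2 ratio of HOXB2 to HOXB3 within a library was -0.60 and -0.45 with sgNeg and -0.48 and -0.39 with sgNPM1A, so that its values overlapped between the groups.

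HOXB6 and HOXB7, which lie next to each other between HOXB5 and HOXB8, also fell, and their difference from HOXB2 and HOXB3 was not tested. HOXB6, from 48595751 to 48604986, had 235 and 281 counts (9.25 and 10.9 CPM) with sgNeg and 89 and 93 counts (3.19 and 3.35 CPM) with sgNPM1A, a log2FC of -1.62 (SE 0.15, adjusted p = 1.80e-05, edgeR). HOXB7, from 48607232 to 48611017, had 277 and 322 counts (10.9 and 12.4 CPM) with sgNeg and 100 and 89 counts (3.59 and 3.21 CPM) with sgNPM1A, a log2FC of -1.78 (SE 0.15, adjusted p = 6.95e-06, edgeR). Here the sgNPM1A libraries lay close together. The sgNPM1A libraries differed by 1.12-fold in HOXB7, beside 3.85-fold in HOXB8, whose annotated span is separated from that of HOXB7 by 1328 bases. HOXB6 also has the largest overlap with other genes: 14.6% of the 50-base words of its transcripts occur in HOXB3 or HOXB7 transcripts, and 10.6% occur on the opposite strand in HOXB-AS3.

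HOXB4 and HOXB5, in the middle of the cluster, changed least. HOXB4, known for its ability to expand hematopoietic stem cells when it is overexpressed, lies from 48575507 to 48578350. It had 357 and 399 counts (14.04 and 15.41 CPM) with sgNeg and 318 and 313 counts (11.4 and 11.3 CPM) with sgNPM1A. Both sgNPM1A libraries were slightly below both controls, a log2FC of -0.38 (SE 0.11, adjusted p = 0.0275, edgeR), or 1.30-fold lower. HOXB4 lies wholly within the span of HOXB3 on the same strand, but only 0.0512% of the 50-base words of its transcripts occur in another gene. Its call was weak, since the adjusted p was 0.0867 with DESeq2, 0.0591 with the replicate number as a block, 0.0977 without sgNeg replicate 2, 0.118 without sgNPM1A replicate 1 and 0.154 without sgNPM1A replicate 2.

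HOXB5, which in the mouse marks long-term hematopoietic stem cells, lies from 48591257 to 48593779. It had 86 and 56 counts (3.38 and 2.16 CPM) with sgNeg and 105 and 92 counts (3.77 and 3.31 CPM) with sgNPM1A. The groups overlapped, and the sgNeg libraries were farther from each other than the group means. Its log2FC was 0.35 (SE 0.22, adjusted p = 0.278, edgeR), with a 95% interval from -0.14 to 0.84, and went from 0.07 without sgNeg replicate 2 to 0.71 without sgNeg replicate 1. The lower end of this interval lies above the 95% interval of each called gene except HOXB4, whose interval ended at -0.13, just above it.

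HOXB13, best known from prostate, lies apart from the others, from 48724763 to 48728750. It had 63 and 61 counts (2.48 and 2.36 CPM) with sgNeg and 40 and 30 counts (1.44 and 1.08 CPM) with sgNPM1A. The groups did not overlap, with a log2FC of -0.94 (SE 0.24, adjusted p = 0.0131, edgeR), or 1.92-fold lower. The adjusted p was 0.0775 with DESeq2, 0.05 without sgNeg replicate 1, where the call was lost, and 0.134 without sgNPM1A replicate 2.

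**Figure D2:**
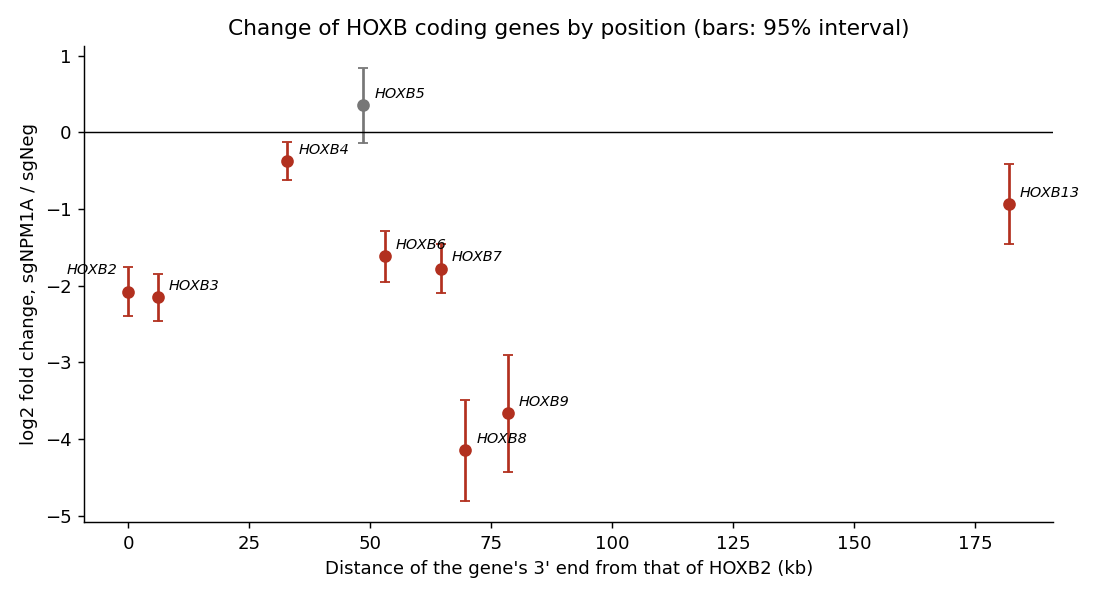
log2 fold change of each HOXB coding gene (sgNPM1A over sgNeg) against the distance of its 3′ end from that of HOXB2 in kb, with 95% intervals; red genes were called lower and the gray gene was not called. Values are near -2 at HOXB2 and HOXB3, -0.38 and 0.35 at HOXB4 and HOXB5, and reach -4.15 at HOXB8.

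The change did not follow a steady course along the cluster. All 9 genes are annotated on the same strand. From the 3′ to the 5′ end the log2FC was near -2 for HOXB2 and HOXB3, -0.38 and 0.35 for HOXB4 and HOXB5, between -1.78 and -1.62 for HOXB6 and HOXB7, and below -3.5 for HOXB8 and HOXB9. Over the 9 genes, which share the 4 libraries and are no independent points, Spearman's rho between order and log2FC was -0.15, and over the 8 without HOXB13 it was -0.38. Ratios of neighbors within each library show the steps without any scaling between libraries. The log2 ratio of HOXB3 to HOXB4 was 1.45 and 1.37 with sgNeg and -0.13 and -0.67 with sgNPM1A. That of HOXB5 to HOXB6 was -1.45 and -2.33 with sgNeg and 0.24 and -0.02 with sgNPM1A. Across the step from HOXB7 to HOXB8, the log2 ratio of HOXB8 to HOXB7 was 0.94 and 1.05 with sgNeg and -0.79 and -2.57 with sgNPM1A. In these 3 ratios the groups did not overlap, but the lack of overlap does not mark the steps. The groups did not overlap in the log2 ratio of HOXB6 to HOXB7 either, where the change was small. It was -0.24 and -0.20 with sgNeg and -0.17 and 0.06 with sgNPM1A.

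These unequal changes altered the share of each HOXB gene in the counts of the cluster. HOXB3 took 29.6% and 27.6% of the summed CPM of the 9 genes with sgNeg and 23.7% and 20.0% with sgNPM1A. The share of HOXB8 went from 16.3% and 17.8% to 4.73% and 1.52%. The share of HOXB4 went from 10.9% and 10.7% to 25.9% and 31.8%, although HOXB4 itself was called lower. That of HOXB5 went from 2.621% and 1.498% to 8.564% and 9.340%, although HOXB5 was not called. HOXB6 and HOXB7 kept shares between 7.16% and 9.44% in all libraries.

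**Figure D3:**
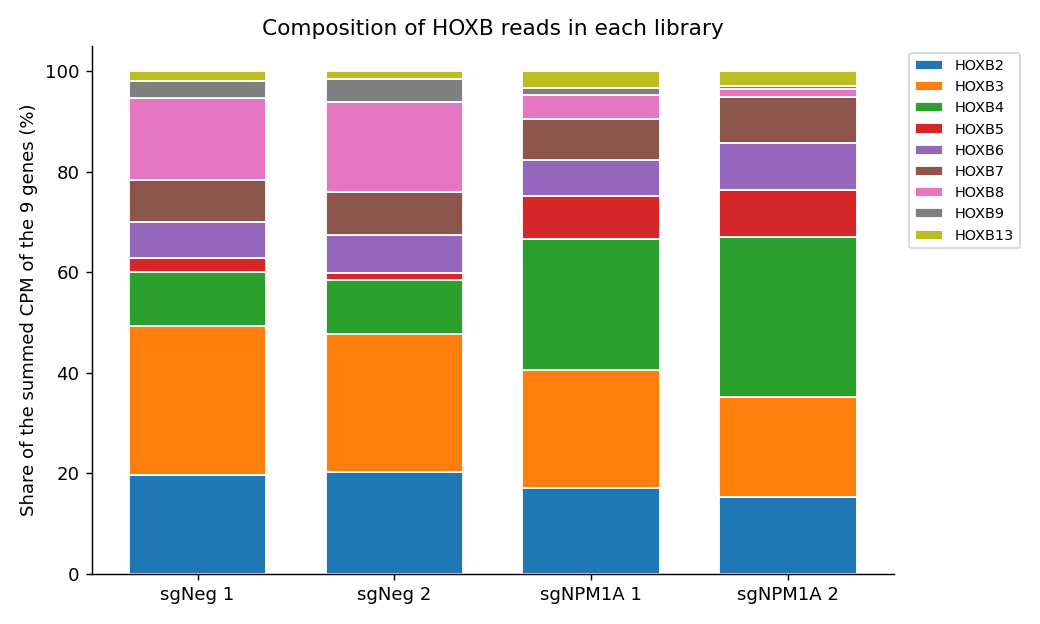
Share of each HOXB coding gene in the summed CPM of the 9 genes, in percent, for each of the 4 libraries. The HOXB4 segment grows from 10.9% and 10.7% with sgNeg to 25.9% and 31.8% with sgNPM1A while the HOXB8 segment shrinks to 4.73% and 1.52%.

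Levels were compared between genes only per kb of the MANE Select transcript. The counts sum all transcripts of a gene, of which 13 are annotated for HOXB3 and 4 for HOXB6. The order of the genes thus assumes the MANE Select length, and which transcripts these cells use was not tested. With sgNeg, HOXB2 had the highest level at 16.2 CPM per kb, followed by HOXB3 at 11.8, HOXB8 at 10.7, HOXB7 at 8.56, HOXB4 at 7.35, HOXB6 at 6.00, HOXB9 at 2.14, HOXB5 at 1.49 and HOXB13 at 0.795 CPM per kb. The libraries of neighbors in this order overlapped for HOXB3 and HOXB8, and for HOXB9 and HOXB5, and in no other neighboring pair. With sgNPM1A, HOXB4 was first at 5.66 CPM per kb, followed by HOXB2 at 3.82, HOXB3 at 2.65, HOXB7 at 2.49, HOXB6 at 1.95, HOXB5 at 1.90, HOXB8 at 0.603, HOXB13 at 0.414 and HOXB9 at 0.167 CPM per kb. Here the libraries overlapped for HOXB3 and HOXB7, HOXB6 and HOXB5, and HOXB8 and HOXB13. HOXB4 thus moved from the fifth place to the first and HOXB8 from the third to the seventh, where its libraries overlap those of HOXB13.

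The replicates were compared in the same genes. Between the sgNPM1A libraries, the exact Poisson intervals of the CPM did not overlap for HOXB2, HOXB3 and HOXB8, and replicate 2 was lower in all 3. Between the sgNeg libraries they did not overlap for HOXB8 and HOXB9, and replicate 1 was lower in both. These intervals cover counting error only. In the same libraries LYZ, which encodes the monocyte and granulocyte enzyme lysozyme, had 6879 and 5571 counts with sgNeg and 73664 and 93496 counts with sgNPM1A. ITGAM, which encodes CD11b, had 19 and 21 counts with sgNeg and 98 and 121 with sgNPM1A. Among the other myeloid markers called higher, the sgNPM1A libraries had 10.2 and 10.5 CPM of MPO, 108.0 and 114.0 CPM of ANPEP and, in the other order, 675.6 and 643.4 CPM of SPI1. In sgNPM1A replicate 2, with the lower HOXB8, LYZ was higher and SPI1 lower. ITGAM, MPO and ANPEP were also higher there, by differences that were not set against counting error. Whether the markers are related to HOXB8 was not tested.

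The cluster also holds noncoding genes and the coding genes HOXB1, PRAC1 and PRAC2. HOXB1 had 0 counts in every library, as did HOXB-AS4 and PRAC1, which allows up to 0.118 CPM. The microRNA genes MIR196A1 and MIR3185 also had 0 counts in every library, but no bound is set for them. Whether these libraries hold small RNA is not given in the sources used here. PRAC2 had at most 1 count in any library. HOXB-AS2 had 8 and 2 counts with sgNeg and 1 and 1 with sgNPM1A and was not tested. ENSG00000257178, which has no RefSeq position here, was taken to lie between HOXB4 and HOXB5. It had 28 and 19 counts with sgNeg and 6 and 2 with sgNPM1A, the latter below the floor of 3 counts. It was called lower, with a log2FC of -2.63 (SE 0.52, adjusted p = 0.00342, edgeR). HOXB-AS3 had 1276 and 1523 counts (50.2 and 58.8 CPM) with sgNeg and 183 and 105 counts (6.57 and 3.78 CPM) with sgNPM1A. It fell 10.5-fold, a log2FC of -3.40 (SE 0.18, adjusted p = 2.36e-07, edgeR). HOXB5 and HOXB6 lie wholly within the span of HOXB-AS3 on the other strand, so that HOXB5, which was not called, is surrounded by a gene whose counts fell. The strand setting of the counting is not given in the sources used here, and reads from overlapping exons cannot be told apart without it. Of the 50-base words of HOXB5, 1.44% occur on the opposite strand in HOXB-AS3, and of those of HOXB6, 10.6%. HOXB-AS3 had more counts than HOXB5 and HOXB6 in every library, so that a small shared part does not bound its reads. How much of the HOXB5 and HOXB6 counts, and of their log2FC, comes from HOXB-AS3 was not tested.

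HOXB-AS1, which overlaps HOXB2 and HOXB3 on the other strand, had 75 and 74 counts with sgNeg and 47 and 41 with sgNPM1A. Its log2FC was -0.87 (SE 0.21, adjusted p = 0.0101, edgeR), and the adjusted p was 0.0646 with DESeq2 and 0.0780 without sgNPM1A replicate 2.

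Genes outside the cluster were taken up to 500 kb from its ends. Of 43 RefSeq genes in these flanks, 26 had a row and 12 were tested, of which 2 were called lower and 2 higher, with a median log2FC of -0.11. At 12 genes these counts are near the 10.3% and 10.5% of all tested genes called lower and higher. With each library left out in turn, from 1 to 2 were called lower and from 1 to 3 higher. The fitted values lay between -1.10 and 0.61. The nearest tested gene beyond HOXB13 was CALCOCO2, an autophagy receptor gene at 102.3 kb, which fell from a mean of 142.9 to 104.5 CPM (log2FC -0.45, SE 0.07, adjusted p = 0.000587, edgeR). The nearest on the side of HOXB2 was SNX11, a sorting nexin gene at 419.1 kb, which rose from a mean of 35.6 to 45.9 CPM (log2FC 0.36, SE 0.08, adjusted p = 0.00593, edgeR, and 0.0916 without sgNPM1A replicate 2). SKAP1, at 97.6 kb on that side, and TTLL6, at 33.5 kb beyond HOXB13, had too few counts to be tested. Outside the cluster no tested gene within this distance changed as much as HOXB2, HOXB3 or the genes from HOXB6 to HOXB9.

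**Figure D4:**
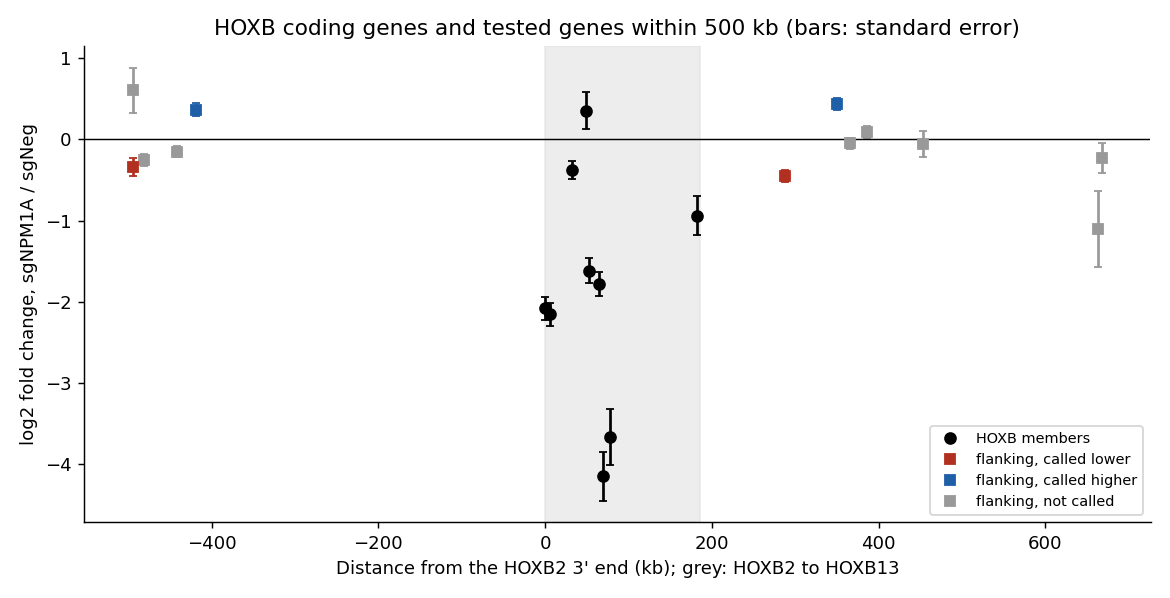
log2 fold change (sgNPM1A over sgNeg, bars: standard error) of the HOXB coding genes and of the 12 tested genes within 500 kb, against distance in kb from the 3′ end of HOXB2; flanking genes are placed by their end nearest to the cluster. Flanking genes lie between -1.10 and 0.61, and HOXB genes reach -4.15 inside the gray span.

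The HOXA cluster is the most closely related group that these cells express. Of the 10 HOXA coding genes analysed here, all were tested, 10 were called lower and 0 higher, with a median log2FC of -2.53 when genes at 0 counts are set to their bound. The number called lower was 7 with DESeq2, from 8 to 10 with a library left out, and 4 where at least 10 counts were required in every library, a filter that only 4 of them passed. No gene of the 9 HOXC and 9 HOXD coding genes was tested, and none had more than 8 counts in any library. Values of the same paralog number differed between the clusters. HOXA5 had 203 and 181 counts with sgNeg and 22 and 4 with sgNPM1A, a log2FC of -3.99 (SE 0.35, adjusted p = 1.10e-05, edgeR) that was -3.24 without sgNPM1A replicate 2 and -5.65 without sgNPM1A replicate 1, beside 0.35 for HOXB5. HOXA4 had 13 and 16 counts with sgNeg and 0 in both sgNPM1A libraries and was at least 5.23-fold lower, by the floor of 3 counts per library, beside 1.30-fold for HOXB4. HOXA13 had 3302 and 3191 counts with sgNeg and 747 and 558 with sgNPM1A, a log2FC of -2.43 (SE 0.11, adjusted p = 1.16e-07, edgeR), beside -0.94 for HOXB13. HOXA9, a major leukemogenic partner of MEIS1, had 1431 and 1612 counts with sgNeg and 536 and 487 with sgNPM1A, a log2FC of -1.69 (SE 0.09, adjusted p = 3.21e-07, edgeR), beside -3.67 for HOXB9. The differences between paralogs were not tested, and they are given side by side from the same fit.

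**Figure D5:**
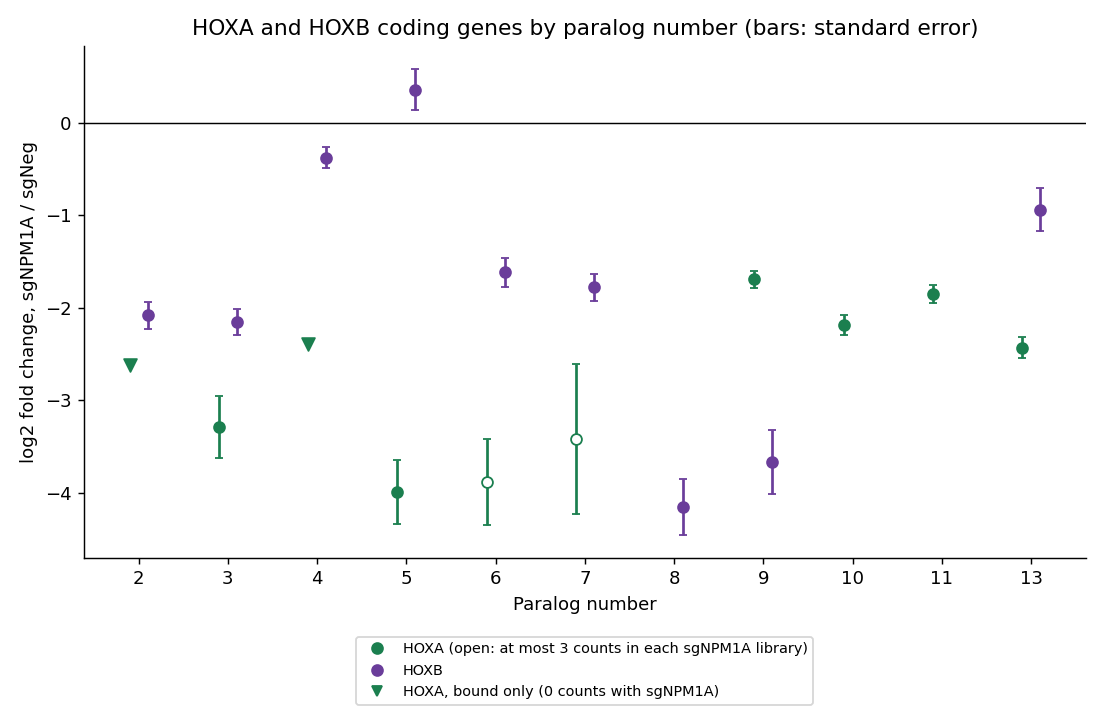
log2 fold change (sgNPM1A over sgNeg, bars: standard error) of HOXA and HOXB coding genes by paralog number; triangles are bounds for HOXA2 and HOXA4, which had 0 counts with sgNPM1A, and open circles are HOXA genes with at most 3 counts in each sgNPM1A library. HOXB4, HOXB5, HOXB6 and HOXB13 lie above all HOXA genes shown, HOXB6 (-1.62) only just above HOXA9 (-1.69), and HOXB9 lies below HOXA9.

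HOX proteins bind DNA with cofactors of the TALE homeodomain class, and their clusters are held active by the KMT2A-menin-DOT1L complexes and silent by polycomb complexes. Of 11 TALE genes, 10 were tested and 3 were called lower, 0 higher, with a median log2FC of -0.175 over the list. MEIS1 had 38.0 and 37.2 CPM with sgNeg and 8.43 and 5.26 CPM with sgNPM1A, a log2FC of -2.46 (SE 0.16, adjusted p = 1.13e-06, edgeR), close to those of HOXB2 and HOXB3. PBX3, a HOX cofactor, had -0.59 and PKNOX1 -0.41, with adjusted p-values of 0.000756 and 0.00567 from edgeR. Of the 15 genes of the KMT2A, menin and DOT1L group, 1 was called lower (AFF1) and 0 higher, with a median log2FC of -0.12. The log2FC of AFF1 was -0.45, and without sgNeg replicate 1 it was -0.26, below the fold threshold, while up to 3 genes of the group were called with another library left out. Of 24 polycomb genes, 5 were called lower (PHC1, PHC2, PHF1, PCGF2 and CBX2) and 3 higher (MTF2, PCGF1 and CBX6), with a median log2FC of -0.13. Over all tested genes, beside which the counts of the TALE, KMT2A and polycomb lists should be read, 10.3% were called lower and 10.5% higher. When each library was left out in turn, the polycomb calls numbered from 2 to 5 lower and from 2 to 3 higher. Of the 10 genes of the CDX, CTCF and retinoid group, 5 were tested and RARG, a retinoic acid receptor gene, was called lower, with a log2FC of -1.01 (adjusted p = 0.000193, edgeR).

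Outside the HOX genes, the tested genes whose profile over the 4 libraries was most like the mean profile of the 9 HOXB genes were SNED1, SPATA6, IL7R, ENSG00000272491 and SEMA6A. Likeness was the Euclidean distance between log2 CPM centered on each gene's mean, over 4 libraries only, and it lay between 0.135 and 0.197 for these genes. SNED1 had 168 and 169 counts with sgNeg and 64 and 39 with sgNPM1A. IL7R, the interleukin-7 receptor gene, had 678 and 789 counts with sgNeg and 257 and 209 with sgNPM1A, a log2FC of -1.77 (SE 0.12). These genes were picked for this profile in the same libraries, so that their falls are no separate result. With 2 groups of 2 libraries, many genes that fell by a similar amount have such a profile.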

How the data were processed

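RNA-Seq read pairs of the 4 libraries were mapped by the authors with STAR and Samtools to hg38, and raw counts per Ensembl gene were deposited without normalization. The counting program, its strand setting and the annotation release are not given in the sources used here. The protocol added ERCC spike-ins, of which the table names 0. Symbols were matched by Ensembl identifier for 55646 of 58037 rows. Positions are those of RefSeq on GRCh38, and transcript lengths and 50-base words those of GENCODE transcripts (lifted to GRCh37, no coordinates used). Of the 9 genes, 0 matched the RefSeq promoter table.

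The groups were compared with edgeR 4.0.16 in R 4.3.3 over all genes: filterByExpr with a minimum count of 10, TMM, robust dispersions, the quasi-likelihood F test (two-sided) and Benjamini-Hochberg adjustment over 15718 genes. A call needed an adjusted p under 0.05 and a difference of at least 25% over the lower group, as in the study's methods. Standard errors are the log2 fold change divided by the square root of F. An exact permutation test of 2 against 2 libraries has 0.333 as its smallest two-sided p, and the calls therefore rest on variance shared between genes. The steps were tested on simulated data. Alternatives were DESeq2 1.42.0, limma-trend (limma 3.58.1), other scalings, filters and folds, a replicate block and each library left out.

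The genes, lists and tests were chosen with earlier results of these data known. Named were the HOXB genes, the listed other genes of the cluster, ENSG00000257178 and the nearest tested flanking genes. Also named were HOXA paralogs, called cofactor and regulator genes, called myeloid markers and the 5 genes of nearest profile. MIR10A, HOXB-AS5, HOXB13-AS1 and PECAM1 matched no row by symbol and were not analysed here. HOXBLINC, whose span overlaps that of HOXB3, was in no list and was not analysed here. Some genes of the lists are not reported here.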

Additional observations from a re-analysis of the deposited data

How the results depend on the processing

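HOXB2, HOXB3, HOXB6, HOXB7, HOXB8 and HOXB9 were called lower, and HOXB5 was not called, under every alternative that gave them a value (HOXB9 has none with at least 10 counts required in every library). The HOXB4 value was -0.38 with DESeq2 (adjusted p = 0.0867) and with the replicate block (0.0591), and between -0.44 and -0.31 with each library left out. The HOXB13 value was -0.94 with DESeq2 (adjusted p = 0.0775) and between -1.16 and -0.75 with each library left out. Of the HOXB genes, DESeq2 called 6 lower and the replicate block 7 (it changed no call but HOXB4). Of all genes, DESeq2 called 1244 lower and the replicate block 1604, beside 1619 (10.3%) in the main fit. In the fits with a library left out, the lone library of a group is assumed to vary like the others. The median log2FC of the HOXB genes lay between -1.87 and -1.68. At a fold of at least 2, 1000 genes of the whole table were called, against 3272. The deviations of same-numbered libraries had a correlation of -0.13 across genes, the labels share only a number, and the replicate block called 3241 genes. A crossed pairing, added after seeing the data, called 3873 genes. In the sgNPM1A libraries depth limits HOXB8, HOXB9 and HOXB13, with 58 and 15, 18 and 6, and 40 and 30 counts.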
